A study of Homo sapiens with 28 samples.

Results

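The secreted cystatins CST1, CST2, CST3, CST4, CST5 and CST6 were followed across 16 RNA-Seq libraries of the prostate cancer cell lines PC3 and LNCaP. These 6 genes, of 19662 listed in the PC3 table, were chosen by symbol with their response to ONECUT2 in both lines already known, so their differences between ONECUT2 levels are given as a description, with no test. PC3 cells, derived from a bone metastasis, received a control siRNA (siCtrl) or an siRNA against ONECUT2 (siOC2). LNCaP cells, derived from a lymph node metastasis, carried an empty vector (EV) or a Flag-OC2 overexpression vector. Each condition was grown in normoxia or in hypoxia at 0.2% oxygen, which gave 4 groups per line with 2 libraries each. Replicate 1 of each siOC2 group received siRNA1 and its replicate 2 received siRNA2, so each siRNA had 1 library per oxygen level. The vectors used a viral promoter, and the labels do not say whether replicates were separate cultures, so the p-values below measure the spread between these libraries.

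Cystatins are small proteins that sit in the active site of papain-like cysteine proteases, the cathepsins, and block them. The type 2 cystatins described here carry a signal peptide and are secreted, and some also inhibit legumain. CST3 (cystatin C) is made by nearly every cell type, whereas CST1 (cystatin SN), CST2 (cystatin SA) and CST4 (cystatin S) are the salivary cystatins, CST5 (cystatin D) is found in saliva and tears, and CST6 (cystatin E/M) is known from skin and breast epithelium. ONECUT2 is a transcription factor with a cut domain and a homeodomain, studied here for its part in the hypoxia response of prostate cancer.

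On GRCh37, the build of the deposited values, 5 of the 6 genes lie side by side on the minus strand of chromosome 20, within 253043 bases. They stand in the order CST3 (chr20:23607343-23619110), CST4 (chr20:23666277-23669675), CST1 (chr20:23728199-23731905), CST2 (chr20:23804406-23807366) and CST5 (chr20:23856571-23860385). CST6 is the exception, on the plus strand of chromosome 11 (chr11:65779479-65780976). Each of the 6 transcripts has 3 exons.

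The salivary cystatin genes are so alike that short reads can be hard to assign among them. Over the whole coding sequence CST1 and CST2 were 91.3% identical, CST1 and CST4 92.7%, and CST2 and CST4 92.4%. CST3 was 69.6% identical to CST1, and CST6 was 47.5% to 52.1% identical to the other members. Of all 50-base windows in the CST1 transcript, 27.1% also occurred in CST4 and 5.43% in CST2. Of the CST2 windows, 8.32% occurred in another member, and at 100 bases none did. CST3 and CST6 shared no window of 50 bases with another member. The split of reads between CST1 and CST4 is therefore the least certain in these values, and sums over CST1, CST2 and CST4 are given below beside the single genes.

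The deposited levels are RPKM, which scales reads to transcript length and to the mapped reads of the library, so they can be compared between genes within a library. Fits and tests of the PC3 and LNCaP values were made only within their own line. Where values of both lines stand side by side, they are a description. Reading depth, inferred from how far apart the lowest values lie, came to about 13300000 to 44000000 fragments in PC3 libraries and 31700000 to 57800000 in LNCaP libraries. The siCtrl normoxia replicate 1, siCtrl hypoxia replicate 2 and siOC2 hypoxia replicate 1 were the shallowest, with at most 0.365 of the depth of the deepest PC3 library. The prostate-specific antigen gene KLK3 was listed at 0 in every PC3 library and lay between 1842 and 3997 RPKM in LNCaP. CD44 lay between 171.3 and 660.9 RPKM in PC3 and between 0.2103 and 0.7484 RPKM in LNCaP. The hypoxia marker CA9 stood at 25.76 to 50.01 RPKM in PC3 and at 3.051 to 5.378 RPKM in LNCaP in hypoxia, and at most at 1.536 RPKM in normoxia in either line.

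ONECUT2 itself was lower in all siOC2 libraries. It measured 1.77 and 1.16 RPKM with siCtrl and 0.276 and 0.204 RPKM with siOC2 in normoxia. In hypoxia it measured 0.648 and 0.550 RPKM with siCtrl and 0.125 and 0.214 RPKM with siOC2. The groups did not overlap at either oxygen level. The difference in normoxia was 2.18 on the log2 scale (SE 0.65, limma adjusted p = 0.332) and was called, which here means past 2-fold with a limma P under 0.05 before adjustment. In hypoxia it was 1.39 (SE 0.65, adjusted p = 0.439) and was not called. ONECUT2 reached 1 RPKM only in the siCtrl normoxia libraries, so it was tested only because it was high there, and the call adds nothing to the values themselves. In LNCaP cells the EV libraries held 2.89 and 7.86 RPKM in normoxia and 11.5 and 3.09 RPKM in hypoxia. The overexpression libraries carry no ONECUT2 value in the table, so the overexpression could not be checked in these values and the gene was left out of the LNCaP fit.

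In PC3 cells with siCtrl, CST3 was the most abundant secreted cystatin, followed by CST2. CST1 and CST4 came next with overlapping levels, and CST5 and CST6 stayed below 1 RPKM. With siOC2, CST2 stood at a small share of its siCtrl level, CST4 was also lower, CST1 was lower by less than 2-fold, and CST3 kept a similar level. Of the 4 members that passed the filter of at least 1 RPKM in at least 2 libraries, CST2 and CST4 were past 2-fold without overlap between libraries at both oxygen levels. Over all 12214 genes tested, 2.44% were past 2-fold without overlap and higher with siCtrl in normoxia and 5.33% in hypoxia. These contrasts chose the members, and CST2 passed the filter only through the siCtrl libraries, so nothing is read from the counts.

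CST2 measured 8.63 and 9.50 RPKM with siCtrl and 1.15 and 0.0867 RPKM with siOC2 in normoxia. Its hypoxia values were 6.67 and 9.03 RPKM with siCtrl and 0.219 and 0.587 RPKM with siOC2. All siCtrl libraries lay above all siOC2 libraries. The difference in hypoxia was 4.07 on the log2(RPKM + 0.1) scale (SE 0.81), and CST2 ranked 6 from the top of the 12214 genes there and 7 in normoxia. The siRNAs were not equal, since siRNA1 left CST2 lower by 2.87 and siRNA2 by 5.62 on the log2 scale in normoxia, but by 4.62 and 3.52 in hypoxia. The lowest values rest on very few reads, with about 1.67 fragments behind CST2 for siRNA2 in normoxia and for siRNA1 in hypoxia, against 75.8 to 209 fragments in the siCtrl libraries. With a pseudocount of 1 in place of 0.1 the differences were 2.72 in normoxia and 2.66 in hypoxia.

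CST4 measured 4.34 and 4.30 RPKM with siCtrl and 2.08 and 0.991 RPKM with siOC2 in normoxia. Under hypoxia the values were 4.74 and 4.53 RPKM with siCtrl and 0.674 and 1.18 RPKM with siOC2. The siCtrl replicates were nearly equal and lay above every siOC2 library. The log2 differences were 1.52 (SE 0.44) in normoxia and 2.25 (SE 0.44) in hypoxia.

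CST1 measured 4.43 and 3.65 RPKM with siCtrl and 2.71 and 1.59 RPKM with siOC2 in normoxia. Hypoxia libraries held 5.45 and 4.60 RPKM with siCtrl and 3.15 and 2.47 RPKM with siOC2. The groups did not overlap, but the log2 differences of 0.92 (SE 0.36) and 0.82 (SE 0.36) stayed under 2-fold. With upper-quartile scaling the difference in normoxia was 1.02, just past 2-fold.

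CST3, the general cystatin, measured 107 and 110 RPKM with siCtrl and 118 and 84.3 RPKM with siOC2 in normoxia. Its levels in hypoxia were 106 and 104 RPKM with siCtrl and 82.8 and 86.7 RPKM with siOC2. The siOC2 libraries spanned the siCtrl values in normoxia and lay below them in hypoxia, with log2 differences of 0.12 (SE 0.24) and 0.31 (SE 0.24).

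CST5 and CST6 did not pass the filter in either line and were not tested. CST5 measured 0.323 and 0.674 RPKM with siCtrl and 0.196 and 0.154 RPKM with siOC2 in normoxia, and 0.371 and 0.706 RPKM with siCtrl in hypoxia. Both siOC2 libraries in hypoxia listed CST5 at 0. These values correspond to only 3 to 15 fragments in the 6 PC3 libraries above 0. CST6 measured 0.214 and 0.0894 RPKM with siCtrl and 0.390 and 0.561 RPKM with siOC2 in normoxia. The corresponding values in hypoxia were 0.0921 and 0 RPKM with siCtrl and 0 and 0.457 RPKM with siOC2. CST6 was thus higher with siOC2 in normoxia, the opposite order to CST5, and overlapped in hypoxia.

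**Figure D1:**
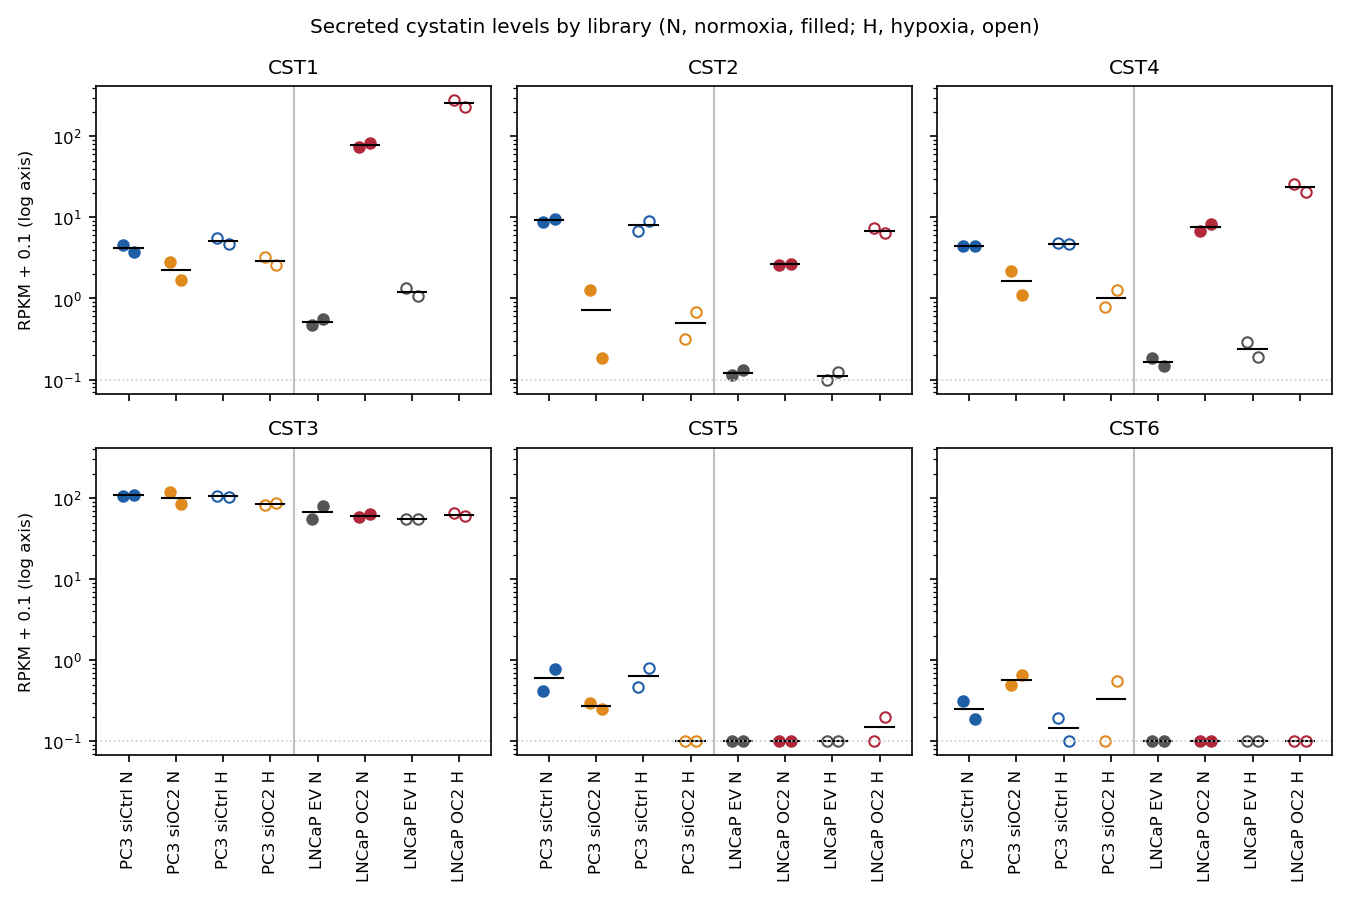
RPKM + 0.1 (log axis) of each secreted cystatin in the 16 libraries, with normoxia filled, hypoxia open, black bars at the mean of RPKM + 0.1 of each pair of libraries and a dotted line at 0 RPKM. CST1, CST2 and CST4 were lower with siOC2 than with siCtrl in PC3 cells and higher with OC2 than with EV in LNCaP cells, while CST3 stayed between 54.5 and 118 RPKM in every library.

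In LNCaP cells the empty vector libraries held CST3 at 54.5 to 79.6 RPKM and the salivary cystatins at no more than 1.26 RPKM. With the ONECUT2 vector CST1 became more abundant than CST3, and CST4 and CST2 followed in that order. CST1, CST2 and CST4 were past 2-fold without overlap at both oxygen levels, against 2.91% of all 12283 genes tested in normoxia and 3.8% in hypoxia that were past 2-fold without overlap and higher with ONECUT2. These genes passed the filter through the ONECUT2 libraries, so their difference is partly set by the filter, and the counts again describe how the members were chosen. The RNA came from bulk cultures, so more cells with cystatin RNA and more cystatin RNA per cell cannot be told apart.

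CST1 measured 0.370 and 0.460 RPKM with EV and 74.2 and 83.2 RPKM with OC2 in normoxia. Its hypoxia values were 1.26 and 0.958 RPKM with EV and 281 and 231 RPKM with OC2. The mean RPKM was thus 189.4-fold higher with OC2 in normoxia and 230-fold higher in hypoxia. The EV values behind these folds correspond to only about 10.2 and 15.3 fragments in normoxia and 33.6 and 28.9 in hypoxia. The log2 differences were 7.26 (SE 0.17) and 7.73 (SE 0.17), which ranked CST1 4 and 2 from the top of the 12283 genes.

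CST4 measured 0.0854 and 0.0455 RPKM with EV and 6.71 and 8.30 RPKM with OC2 in normoxia. Under hypoxia the values were 0.189 and 0.0888 RPKM with EV and 25.8 and 20.7 RPKM with OC2. The log2 differences were 5.52 (SE 0.27) and 6.64 (SE 0.27), at ranks 6 and 5. The EV values of CST4 correspond to 1.51 to 5.03 fragments per library, so the size of its difference depends on the pseudocount.

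CST2 measured 0.0123 and 0.0305 RPKM with EV and 2.49 and 2.57 RPKM with OC2 in normoxia. Hypoxia libraries held 0 and 0.0223 RPKM with EV and 7.25 and 6.33 RPKM with OC2. The EV values correspond to about 0.336 and 1.01 fragments in normoxia and to 0 and 0.672 in hypoxia. No fold is therefore given for CST2, whose log2 difference moved from 4.44 (SE 0.28) in normoxia with a pseudocount of 0.1 to 1.79 with 1 and to 6.40 with 0.01.

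CST3 measured 55.9 and 79.6 RPKM with EV and 57.7 and 63.2 RPKM with OC2 in normoxia. Its levels in hypoxia were 54.5 and 54.5 RPKM with EV and 65.0 and 60.0 RPKM with OC2. The groups overlapped in normoxia, and the OC2 libraries were slightly higher in hypoxia, with log2 differences of -0.14 (SE 0.16) and 0.20 (SE 0.16). CST5 was listed at 0 in 7 LNCaP libraries and at 0.0977 RPKM in OC2 hypoxia replicate 2, about 2.01 fragments, and CST6 was listed at 0 in all 8.

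**Figure D2:**
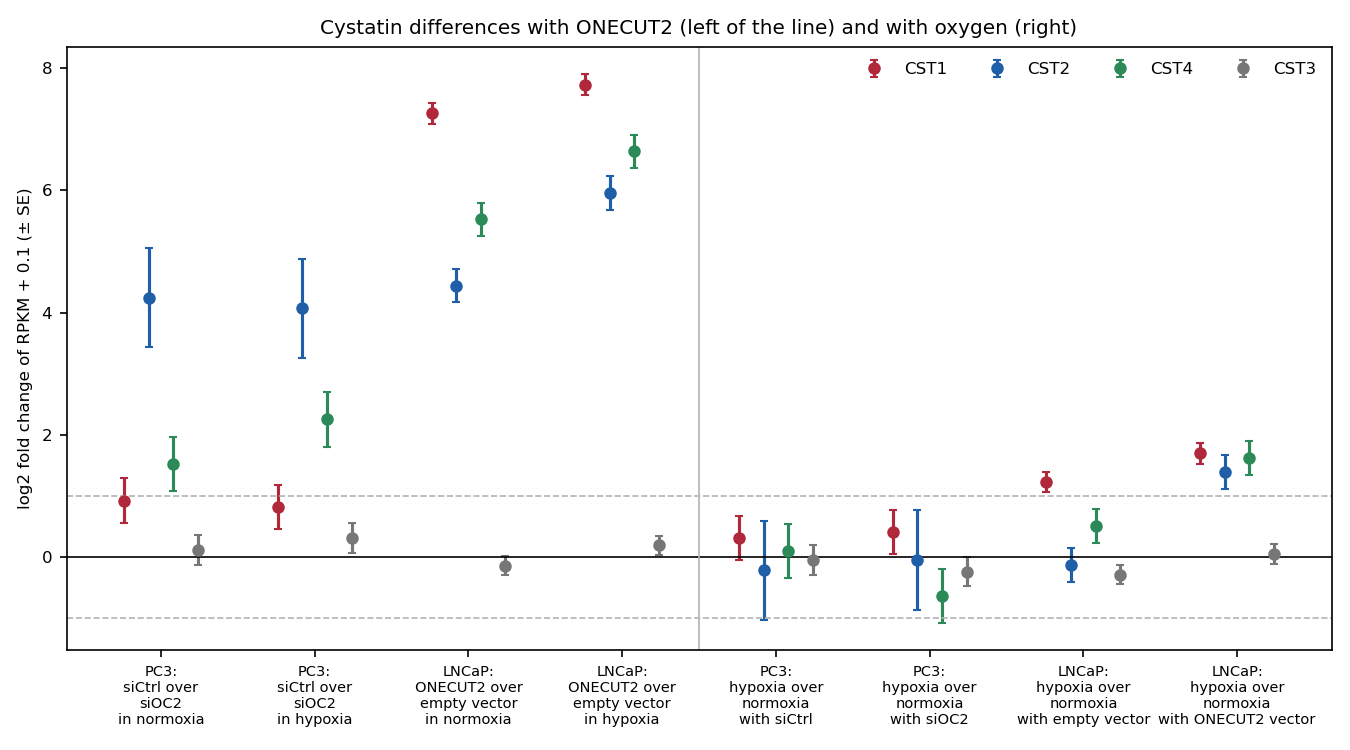
log2 fold changes of RPKM + 0.1 with their SE for CST1, CST2, CST4 and CST3 in the ONECUT2 comparisons (left of the vertical line) and in hypoxia over normoxia (right), with dashed lines at 2-fold. The 3 salivary cystatins lie above 4 on the log2 scale in LNCaP cells with the ONECUT2 vector, CST2 also in PC3 cells, and CST3 stays between -0.29 and 0.31 in all 8 comparisons.

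The salivary cystatins did not keep the same proportions in the 2 lines. Within a library their ratio needs no scaling between libraries. The summed RPKM of CST1, CST2 and CST4, which does not depend on how reads were split among them, was 16.9 to 18.2 in siCtrl libraries. In siOC2 libraries it was 5.94 and 2.67 in normoxia and 4.04 and 4.23 in hypoxia. CST2 made up 39.6% to 54.4% of the sum with siCtrl and 3.25% to 19.4% with siOC2, so CST1 was the most abundant of the 3 in every siOC2 library and CST2 in every siCtrl library. The ratio of CST2 to CST1 was 1.23 to 2.6 with siCtrl and 0.0546 to 0.426 with siOC2.

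In LNCaP cells CST1 dominated. The sum was 0.468 to 1.45 RPKM with EV, 83.4 and 94 RPKM with OC2 in normoxia, and 314 and 258 RPKM with OC2 in hypoxia. CST1 made up 88.4% to 89.5% of it in the 4 OC2 libraries. The ratio of CST4 to CST1 was 0.0905 and 0.0997 with OC2 in normoxia and 0.092 and 0.09 in hypoxia, and it was 0.871 to 1.18 in PC3 siCtrl libraries. The ratio of CST2 to CST1 was 0.0309 to 0.0336 with OC2 in normoxia and 0.0258 to 0.0275 in hypoxia. The share of CST1 reads assigned to CST4 or CST2 through common sequence was not tested.

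**Figure D3:**
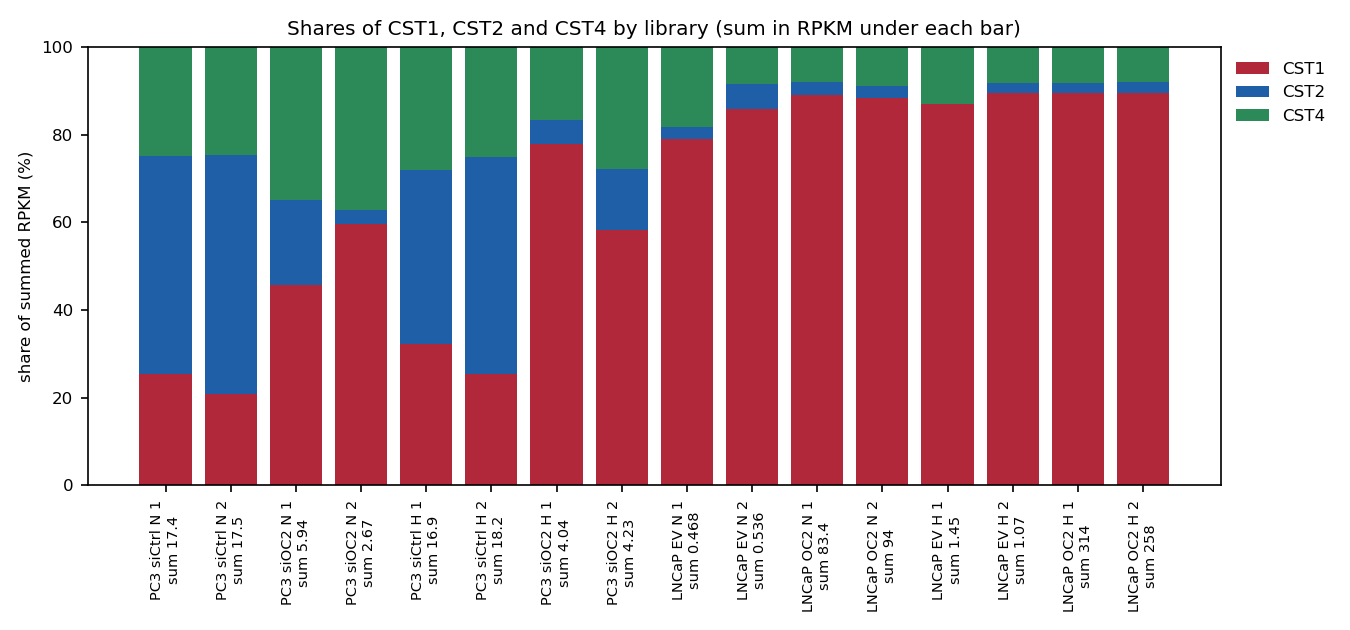
Shares (%) of CST1, CST2 and CST4 in their summed RPKM in each of the 16 libraries, with the sum in RPKM under each bar. CST2 is the largest share in the 4 PC3 siCtrl libraries (39.6% to 54.4%), and CST1 is the largest in all other libraries.

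Hypoxia was compared with normoxia at each ONECUT2 level by the same limits for a call. These comparisons are not the ones that chose the members, but they use values of the same libraries. Their p-values are therefore not independent of that choice and are given as a description. In PC3 cells none of the 4 members tested was called, with either siRNA, and none had an unadjusted P under 0.05. Of all genes tested, 3.86% were called with siCtrl and 3.46% with siOC2. With siCtrl the log2 differences of hypoxia over normoxia were 0.31 (SE 0.36) for CST1, -0.22 (SE 0.81) for CST2, 0.10 (SE 0.44) for CST4 and -0.05 (SE 0.24) for CST3. The median over all genes was -0.07 with siCtrl and -0.22 with siOC2. The lowest P of a member was that of CST4 with siOC2, a difference of -0.63 (SE 0.44, limma adjusted p = 0.755). Without siOC2 normoxia replicate 2, the siRNA2 library, CST2 (-1.42, limma adjusted p = 0.558) and CST4 (-1.13, adjusted p = 0.572) were called lower in hypoxia with siOC2. Without siOC2 normoxia replicate 1, the siRNA1 library, the difference of CST2 was 1.33 in the other direction (adjusted p = 0.792) and that of CST4 -0.13 (adjusted p = 0.93), and neither was called. CST2 was lower in hypoxia than in normoxia with siRNA1 and higher with siRNA2, so no direction is read for it with siOC2.

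In LNCaP cells hypoxia went with more CST1. With EV, CST1 rose from 0.370 and 0.460 RPKM to 1.26 and 0.958 RPKM, a log2 difference of 1.23 (SE 0.17, limma adjusted p = 0.00155). It was the only member called there, against 5.6% of all genes called higher. CST4, at 0.0854 and 0.0455 RPKM in normoxia and 0.189 and 0.0888 RPKM in hypoxia, differed by 0.51 (SE 0.27, adjusted p = 0.184). With a pseudocount of 1 the CST1 difference was 0.57 (adjusted p = 0.0137), under 2-fold, since its EV values are near or below 1 RPKM.

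With the ONECUT2 vector 3 of the 4 members tested rose in hypoxia, against 5.48% of all genes called higher. CST1 rose by 1.69 on the log2 scale (SE 0.17, limma adjusted p = 0.000513), CST4 by 1.62 (SE 0.27, adjusted p = 0.00453) and CST2 by 1.39 (SE 0.28, adjusted p = 0.00915). Both hypoxia libraries of each gene lay above both normoxia libraries. In the 4 OC2 libraries CST4 stayed at 0.09 to 0.0997 of CST1, and CST2 at 0.0258 to 0.0336 of it. The genes share sequence, and how far CST1 reads entered the other 2 values was not tested. The 3 calls are therefore not read as separate results. CST3 differed by 0.05 (SE 0.16, adjusted p = 0.84). The 3 calls were kept without any single library, with log2 differences of 1.55 to 1.84 for CST1, 1.46 to 1.78 for CST4 and 1.29 to 1.48 for CST2. With a pseudocount of 0.01 the CST2 difference was 1.42 and was not called (limma adjusted p = 0.152). Whether the response to hypoxia differed between EV and OC2 was not tested, because that difference holds the same contrasts that chose the members. The ONECUT2 level reached in these libraries is not in the table, so its part in the higher hypoxia values was not tested.

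The proteases that cystatins inhibit and the other cystatins were followed through 24 genes listed by role. In PC3 cells 13 passed the filter, 11 of them proteases. The others were CSTB (cystatin B), an inhibitor inside the cell, with 171.7 to 270.7 RPKM, and CST7 (cystatin F) with 1.009 to 3.101 RPKM. CST8, CST9L, CST11 and CSTL1 were listed at 0 in every PC3 library.

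In normoxia 1 of the 13 was called between siCtrl and siOC2, against 5.21% of all genes, and in hypoxia 4 of the 13, against 7.5%. The median log2 difference of the 13 genes was 0.24 in normoxia, beside -0.13 over all genes, and 0.36 in hypoxia, beside 0.03. No gene of the list passed an adjusted p under 0.05 in PC3 cells, where 0.00819% of all genes did in normoxia and 0.0901% in hypoxia. CTSH (cathepsin H) in hypoxia had the lowest P of the list but stayed under 2-fold and was not called. Its mean levels were 47.16 RPKM with siCtrl and 25.93 RPKM with siOC2, without overlap (0.86, SE 0.25, limma adjusted p = 0.218). CTSS (cathepsin S), a protease of antigen presentation, was higher with siOC2 at both oxygen levels. It measured 0.728 and 1.09 RPKM with siCtrl and 1.67 and 3.88 RPKM with siOC2 in normoxia, a difference of -1.42 for siCtrl over siOC2 (SE 0.54, limma adjusted p = 0.473). In hypoxia it measured 0.857 and 1.05 RPKM with siCtrl and 2.03 and 3.86 RPKM with siOC2 (-1.47, SE 0.54, limma adjusted p = 0.317). Its higher values were with siRNA2 both times.

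The other 3 calls were in hypoxia, all higher with siCtrl. CTSW (cathepsin W), known from cytotoxic lymphocytes, measured 3.24 and 2.73 RPKM with siCtrl and 1.04 and 0.131 RPKM with siOC2 (2.58, SE 0.86, limma adjusted p = 0.277). CTSO measured 1.19 and 1.34 RPKM against 0.493 and 0.287 RPKM (1.51, SE 0.58, adjusted p = 0.341). It reached 1 RPKM only in siCtrl libraries and was tested only through them, so its call, 1 of the 4, is partly set by the filter. CTSV, a close relative of CTSL, measured 7.18 and 5.90 RPKM against 3.82 and 2.49 RPKM (1.05, SE 0.40, adjusted p = 0.339). The libraries of the 4 genes did not overlap in hypoxia. The leukocyte markers PTPRC and CD74 were at most at 0.06351 and 0.6461 RPKM in PC3 cells, and the summed level of the 2 markers was 0.06948 to 0.6653 RPKM. These calls depended on single libraries. The count in normoxia was 0 without siCtrl replicate 1 or siOC2 replicate 2, and that in hypoxia was 0 without either siCtrl library and 1 without siOC2 replicate 2.

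The proteases best known as cystatin targets were abundant in PC3 cells and were not called. CTSB (cathepsin B) lay between 58.62 and 129.4 RPKM, CTSL (cathepsin L) between 14.89 and 34.08 RPKM and LGMN (legumain) between 3.696 and 11.88 RPKM. Their log2 differences for siCtrl over siOC2 in normoxia were 0.26 (SE 0.43), 0.24 (SE 0.37) and -0.18 (SE 0.49). CSTB differed by -0.39 (SE 0.24) in normoxia and 0.10 (SE 0.24) in hypoxia.

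In LNCaP cells 12 genes of the list passed the filter, and none was called between the ONECUT2 vector and EV, against 3.29% of all genes in normoxia and 4.47% in hypoxia. An unadjusted P under 0.05 was reached by 3 of the 12 at each oxygen level. Only CTSF (cathepsin F) in hypoxia passed an adjusted p under 0.05, against 5.26% of all genes in normoxia and 11.5% in hypoxia. Its mean levels were 16.61 RPKM with OC2 and 11.61 RPKM with EV (0.51, SE 0.14, limma adjusted p = 0.0478). In normoxia CTSF was lower with OC2, without overlap (-0.32, SE 0.14, limma adjusted p = 0.201). In PC3 cells its difference for siCtrl over siOC2 was -0.71 (SE 0.42) in normoxia and -0.77 (SE 0.42) in hypoxia, without overlap and not called. CTSB lay between 87.88 and 129.1 RPKM, CTSL between 48.68 and 89.61 RPKM and LGMN between 49.18 and 85.55 RPKM over the LNCaP libraries. CSTB measured 253 and 219 RPKM with EV and 412 and 269 RPKM with OC2 in normoxia (0.50, SE 0.18, adjusted p = 0.141), and -0.04 (SE 0.18) was the log2 difference in hypoxia.

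**Figure D4:**
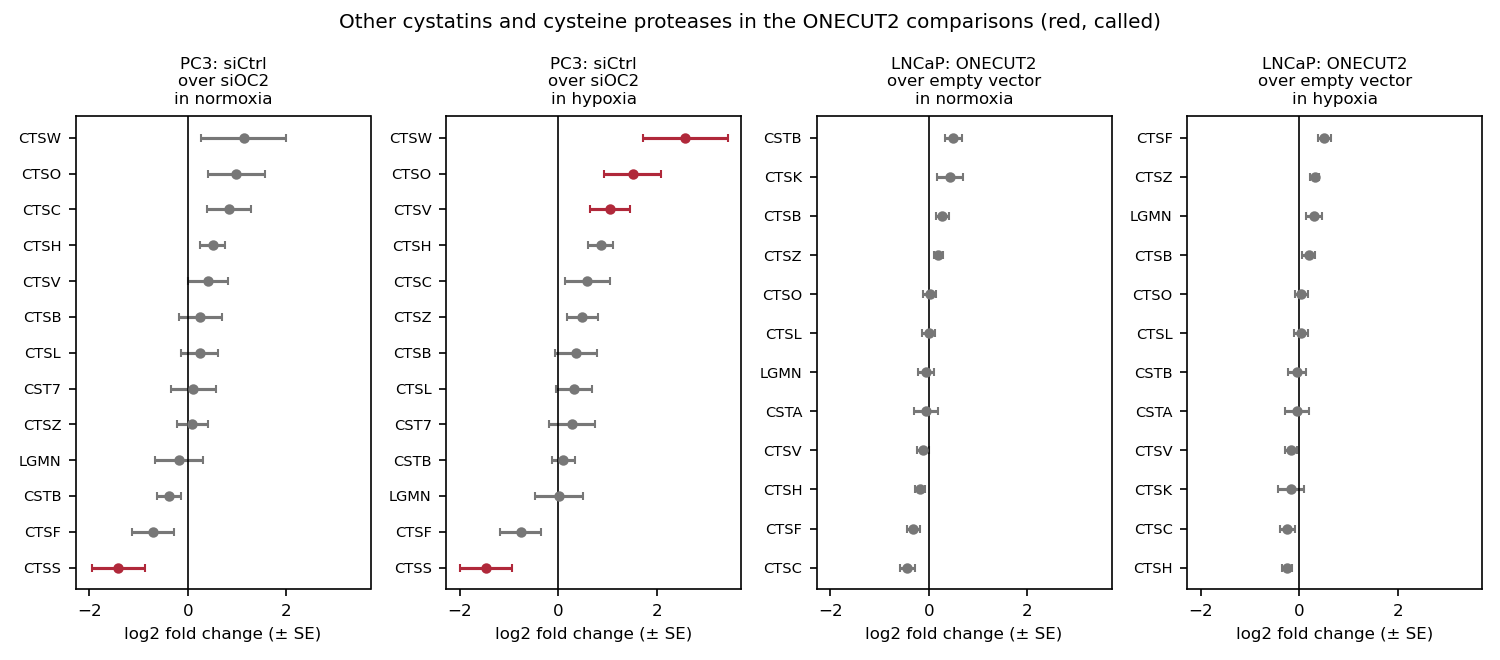
log2 fold changes (± SE) of the other cystatins and cysteine proteases in the 4 ONECUT2 comparisons, with genes past the call limits in red. CTSS is called in both PC3 comparisons, CTSW, CTSO and CTSV in PC3 hypoxia, and no gene is called in LNCaP cells.

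In hypoxia against normoxia no gene of the list was called in either line, while 7.95% of all genes were called in LNCaP cells with EV and 6.84% with the ONECUT2 vector. In PC3 cells no gene reached an unadjusted P under 0.05. In LNCaP cells 5 of the 12 with EV and 6 of the 12 with the ONECUT2 vector passed an adjusted p under 0.05, against 32.3% and 26.9% of all genes. CTSC, CTSH, CTSL, CTSV and LGMN fell with EV, and CSTB, CTSC, CTSH, CTSL and CTSV fell with the ONECUT2 vector, where CTSF rose. CTSV had a difference of -0.94 (SE 0.12, limma adjusted p = 0.00126) with EV and -0.99 (SE 0.12, adjusted p = 0.00129) with the ONECUT2 vector. CTSL fell from 76.5 and 83.0 RPKM to 52.2 and 53.0 RPKM with EV (-0.60, SE 0.14, adjusted p = 0.0143). CSTB fell from 412 and 269 RPKM to 190 and 179 RPKM with the ONECUT2 vector (-0.86, SE 0.18, adjusted p = 0.0109).

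The genes around the cluster were described in the same way. Of 53 other genes within 1 Mb of the cluster ends in the RefSeq gene table (GRCh38.p14), 13 were listed in the tables. GZF1, NAPB, NXT1 and THBD were tested in PC3 cells and the first 3 of these in LNCaP cells. In LNCaP cells their log2 differences for ONECUT2 over EV lay between -0.32 and 0.10. In PC3 cells they lay between -0.74 and 0.33 in normoxia. THBD (thrombomodulin), an anticoagulant receptor, was the exception in PC3 hypoxia, with 5.08 and 4.05 RPKM with siCtrl and 0.219 and 1.16 RPKM with siOC2 (2.87, SE 0.65, called, limma adjusted p = 0.13). THBD passed the filter only through the siCtrl libraries, since 1 siOC2 library reached 1 RPKM, so this call is partly set by the filter. In normoxia THBD measured 1.00 and 1.18 RPKM with siCtrl and 0.726 and 0.977 RPKM with siOC2, and its siCtrl libraries differed by 1.97 between hypoxia and normoxia (SE 0.65, called, adjusted p = 0.478). CST2, at 6.67 to 9.50 RPKM in all siCtrl libraries, did not share this oxygen pattern.

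Promoter windows, from 250 bases before to 50 bases after the start, were at hand for CST3 and CST5 (RefSeq, GRCh38.p14). Neither window held ATCGAT or ATCAAT, searched on both strands as cores of the ONECUT class, or ACGTG, the core of the hypoxia response element. Among 35116 promoter windows 0.763% held ATCGAT, 6.26% ATCAAT and 21.4% ACGTG. The start regions of CST1, CST2, CST4 and CST6 were not analysed here.

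Over the 8 PC3 libraries the salivary cystatins varied together, and CST3 varied with CST4 and CST2 to a like degree. Pearson's r of log2(RPKM + 0.1) was 0.969 between CST2 and CST4, 0.858 between CST1 and CST2 and 0.78 between CST1 and CST4. For CST3 it was 0.811 with CST4, 0.767 with CST2 and 0.551 with CST1, so the pattern was not particular to the salivary genes. With ONECUT2 r was 0.881 for CST2, 0.874 for CST4, 0.655 for CST1 and 0.66 for CST3. These values are a description, because the 8 libraries hold the siRNA groups by which the members were chosen and CST1 and CST4 share sequence. The genes most like CST1 were SEPT7 (r = 0.986), PPARG (0.964) and VEGFA (0.961), those most like CST2 were HIST2H3PS2 (0.981), HIST1H4A (0.98) and NOTCH2 (0.978), those most like CST4 were WRB (0.99), SPAST (0.986) and OBFC1 (0.986), and those most like CST3 were C8orf59 (0.984), FTSJ1 (0.974) and EPOR (0.97). None of the 12 was a cystatin, so with 8 libraries at least 3 other genes followed each of these 4 members more closely than the other 3 did. CST5 and CST6, below the filter, were not compared in this way.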

How the data were processed

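Only the 16 RNA-Seq libraries were used, and 12 ChIP-Seq samples of the series were left out because this text concerns expression. The authors made stranded mRNA libraries, aligned trimmed reads to hg19 (GRCh37) with STAR 2.4.2a and deposited RPKM per gene from Cufflinks 2.1.1 with a GENCODE annotation. Reads common to paralogs were divided by that counting. The values carry no counts, so depth was inferred from the spacing of the lowest ones, after a check on simulated data. Fragment numbers are estimates from that depth and the transcript length, divided by 1.3. This factor brought the 7 CST5 values above 0 closest to whole numbers, so CST5 fragments are near whole by that choice. The check on simulated data did not cover this factor.

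Genes reaching 1 RPKM in 2 or more libraries of a line entered a limma 3.58.1 fit (R 4.3.3) of log2(RPKM + 0.1) with a trend of variance on level and a term for each of its 4 groups. Fold changes are on this scale, which understates those of low genes. Tests were 2-sided, and adjusted p are Benjamini-Hochberg over all genes tested. Groups came from the labels. Of the listed LNCaP markers, 2 are not reported here, and neither are gene sequences. Coding sequences of the GENCODE annotation were aligned with Biopython 1.88.

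The members and lists were chosen with earlier results of these data known. Named are all members, ONECUT2, listed genes called in a contrast plus CSTB, CTSB, CTSL and LGMN, the 3 genes most correlated with each member tested, and chromosome 20 neighbours past 2-fold without overlap. Also named are listed genes with an adjusted p under 0.05 or with opposite signs without overlap. Alternatives were other pseudocounts, filters and scaling, fits to 2 groups only, a replicate block, adjusted p for calls and leaving out each library.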

Additional observations from a re-analysis of the deposited data

Results flagged for a closer look

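CSTB, the cystatin inside the cell, had log2 differences of opposite sign in the 2 lines in normoxia, -0.39 for siCtrl over siOC2 in PC3 cells (limma adjusted p = 0.682) and 0.50 for ONECUT2 over EV in LNCaP cells (limma adjusted p = 0.141). The libraries did not overlap in either, and neither difference was called. For hypoxia over normoxia its difference was 0.42 with siCtrl in PC3 cells (limma adjusted p = 0.789) and -0.31 with EV in LNCaP cells (limma adjusted p = 0.213), also not called. CTSV had a called difference of 1.05 for siCtrl over siOC2 in PC3 hypoxia (limma adjusted p = 0.339) and one of -0.17, not called, for ONECUT2 over EV in LNCaP hypoxia (limma adjusted p = 0.416). Its differences for hypoxia over normoxia were 0.47 with siCtrl in PC3 cells (limma adjusted p = 0.878) and -0.94 with EV in LNCaP cells (limma adjusted p = 0.00126), both under 2-fold. The difference between the lines was not tested, since their values were normalised separately, and with groups of 2 no test for an outlying library was possible. Only the members, CSTB, CTSB, CTSL, LGMN and the listed genes called in a contrast were searched for opposite signs without overlap. No secreted cystatin met this condition. Of the listed genes not searched, CTSC, CTSH, CTSF and CTSZ met it too. For the ONECUT2 comparisons in PC3 and LNCaP cells, CTSC had 0.84 and -0.44 in normoxia. CTSH had 0.86 and -0.25 and CTSF -0.77 and 0.51, both in hypoxia. For hypoxia over normoxia CTSZ had 0.25 with siCtrl and -0.09 with EV.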

How the results depend on the processing

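The tests rest on 2 libraries per group, and the siOC2 groups mix 2 siRNAs. Without a filter, 4 of the 6 members were past 2-fold without overlap between siCtrl and siOC2 in normoxia, with CST2, CST4 and CST5 higher with siCtrl and CST6 higher with siOC2, and with a filter of 5 RPKM 1 of 2 was, at each oxygen level. Without a filter 1 member, CST5, was called for hypoxia with siOC2, and with a pseudocount of 1 the count with EV was 0. Leaving out single libraries gave 0 to 2 members called for hypoxia with siOC2. Of the 13 or 12 listed cystatins and proteases, the count for siCtrl over siOC2 in normoxia became 0 with a pseudocount of 1, a filter of 5 RPKM or adjusted p, and in hypoxia 1, 1 and 0. Leaving out libraries gave 0 to 1 and 0 to 4. For ONECUT2 over EV it became 1 without a filter at both oxygen levels and 1 with adjusted p in hypoxia. ONECUT2 itself differed by 0.98 in normoxia with a pseudocount of 1, no longer past 2-fold, and in hypoxia was called without a filter (1.39) and with upper-quartile scaling (1.36), and ranged from 1.15 to 1.63 without single libraries, where it was called without siOC2 hypoxia replicate 2 and not without the other hypoxia or siOC2 libraries. ONECUT2 passed the filter through its 2 siCtrl normoxia libraries, so leaving out either of them, or a filter of 5 RPKM, gave no value for it. No result changed sign among the settings where it was called. CST2 for hypoxia with siOC2 did change sign between settings, from -1.42 without siOC2 normoxia replicate 2 to 1.33 without siOC2 normoxia replicate 1. The causes were not tested.

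Same-numbered libraries correlated by 0.618 in their deviations only between the siOC2 groups, which share an siRNA, and by -0.186 to 0.275 elsewhere. The numbers were not taken as pairs in any fit, so hypoxia with siOC2 was compared without its match by siRNA. The replicate block, a single term over all groups of a line, does not stand in for that match. With the replicate block, no call of a member or of ONECUT2 changed. The counts for siCtrl over siOC2 stayed at 2 members and at 1 and 4 listed genes, and CST1, CST2 and CST4 with the ONECUT2 vector kept adjusted p of 0.00155, 0.0165 and 0.0064 for hypoxia. Depth limits CST5, CST6 and the EV values of CST2 and CST4, and to a lesser degree those of CST1.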
